A study of Quercus lobata with 12 samples.

Results

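The early-extracted seedlings are the valley oak (*Quercus lobata*) seedlings whose leaf RNA was extracted on 16 or 19 October. They were chosen by extraction day alone and number 6 of the 12 seedlings sequenced, and the other 6 were extracted on day 30 of the same month. Each family (HV-11, LAY-15, YORK-09) gave 1 treated and 1 control seedling to the early set, so that the 5-Azacytidine seedlings HV-11-33, LAY-15-34 and YORK-09-08 were compared with the control seedlings HV-11-05, LAY-15-30 and YORK-09-03 in 3 pairs. The pairs of HV-11 and LAY-15 were extracted on day 19 and the pair of YORK-09 on day 16. The families are the open-pollinated offspring of single maternal trees, mostly half-siblings, and the study picked them for large phenotypic differences between treated and control plants.

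All seedlings had been pruned and re-sprouted, and were sprayed for 27 days. The treated seedlings received 50 µM 5-Azacytidine in TWEEN20, a surfactant, and the control seedlings TWEEN20 alone. The surfactant damaged leaves in both groups, and the groups were kept apart in the growth chamber, so position and treatment cannot be told apart. The leaves were frozen when spraying ended, months before RNA extraction, so early and late refer to the extraction and not to the harvest. Bisulfite sequencing was done on the HV-11 and LAY-15 seedlings of this set, and was not analysed here. The study chose these seedlings for the most marked differences in phenotype between treated and control plants of each family.

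5-Azacytidine is a cytosine analogue that is built into DNA in dividing cells, where it cannot be methylated normally and traps the DNA methyltransferases, so that methylation is lost from newly made DNA. In plants, cytosine methylation lies in the CG, CHG and CHH sequence contexts (H is any base but G), silences transposons, and at promoters commonly goes with low transcription. Its removal is known to reactivate some silenced genes, and other genes fall. In the early-extracted seedlings the comparison asks which genes differed between treated and control leaves of a family.

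The deposited table counts reads for 39373 genes, and none of its identifiers matched the RefSeq gene table used here. Genes are therefore described by their levels, and 4 identifiers are given without a name, a function or a genome position. The early seedlings had 9957359 to 11570198 counts each and 25687 to 27122 genes with at least 1 count, with 5.27% to 11.7% of all counts in the top 10 genes. Levels are given as CPM, read counts relative to library size, scaled by TMM over the 12 seedlings. In whole leaf tissue, fewer cells of a type and less RNA per cell cannot be told apart. The strand setting and annotation version of the counting are not given in the sources used here, so genes that overlap, lie antisense to each other or have a near-identical copy are uncertain.

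No gene passed the test between the 3 treated and 3 control seedlings. edgeR's quasi-likelihood test with family as a block called 0 of 22468 genes (0%) at a Benjamini-Hochberg adjusted p under 0.05, and the smallest adjusted p was 1. At an unadjusted p under 0.05 there were 822 genes, fewer than that threshold passes when no gene differs. Of these, 558 (2.48% of the genes tested) were higher in the treated seedlings and 264 (1.18%) were lower. DESeq2, run with the same block, called 196 genes, 165 of them higher (0.734%) and 31 lower (0.138%), and with no pairing it called 79. The p-values measure the spread between these seedlings, 1 per family and treatment. Of the 165 genes that DESeq2 called higher, 155 were higher in all 3 pairs, and in 109 the lowest treated seedling lay above the highest control, where 2495 and 713 (3.17%) of all 22468 genes did. Of the 31 called lower, 21 were lower in all 3 pairs and 12 did not overlap, where 2716 and 695 (3.09%) of all genes did. These counts come from the values that made the calls and only describe them.

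The excess of higher over lower genes was smallest without the pair of LAY-15. Among genes at an unadjusted p under 0.05 in edgeR, none of which it called, 67.9% were higher in the treated seedlings. The share was 61.8% without the pair of HV-11, 55.7% without LAY-15 and 77.6% without YORK-09. Without LAY-15, DESeq2 called 139 genes higher and 94 lower, and without YORK-09 it called 256 higher and 38 lower.

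QL05p064288 had the smallest p-value among the genes higher in treated seedlings. HV-11-05 had 1 count, LAY-15-30 had 0 and YORK-09-03 had 9, against 78, 41 and 1885 in their treated partners. As levels, these are 0.0856, 0 and 0.746 CPM in the controls and 7.26, 4.09 and 155.0 CPM in the treated seedlings. All treated seedlings lay above all controls, and YORK-09-08 was far above the other treated seedlings. The fitted log2 fold change was 7.38 ± 0.58 (approximate SE, n = 3 per group), with an edgeR adjusted p of 1 and a DESeq2 adjusted p of 5.85e-13. The SE does not cover how far it rests on single seedlings: unpaired, the log2 fold change was 4.30 without YORK-09-08 and 9.95 without YORK-09-03. The late-extracted seedlings did not repeat this order: the late controls had 442, 274 and 2.07 CPM in HV-11, LAY-15 and YORK-09, and the late treated seedlings 8.62, 0.963 and 7.89 CPM. In HV-11 and LAY-15 the late controls were thus the high seedlings.

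QL09p011651, the next by p-value, gave nearly the same picture. HV-11-05 had 0.257 CPM, LAY-15-30 had 0.0969 and YORK-09-03 had 3.07, from 3, 1 and 37 counts. The treated seedlings had 10.9, 37.7 and 233.7 CPM in the same order of families, again without overlap. The log2 fold change was 6.50 ± 0.66 (approximate SE, n = 3 per group), with an edgeR adjusted p of 1 and a DESeq2 adjusted p of 1.58e-14. Unpaired, the log2 fold change was 4.40 without YORK-09-08 and 8.96 without YORK-09-03. Among late seedlings the controls held 396.5, 528 and 33.5 CPM and the treated seedlings 22.3, 13.1 and 43.3 CPM. The early controls were the lowest of all 12 seedlings for this gene.

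QL04p028865 had the smallest p-value among the genes lower in treated seedlings. Its early controls had 44.9 CPM (HV-11), 64.4 CPM (LAY-15) and 12.3 CPM (YORK-09), and its early treated seedlings 8.85, 5.38 and 0.904 CPM. The groups did not overlap, and the log2 fold change was -3.19 ± 0.45 (approximate SE, n = 3 per group), with an edgeR adjusted p of 1 and a DESeq2 adjusted p of 1.62e-05. The late controls had 0, 3.11 and 4.65 CPM and the late treated seedlings 31.0, 0.214 and 9.51 CPM, so the treated seedling was the higher of the late pair in HV-11 and YORK-09 and the lower in LAY-15.

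QL05p000933 was the other gene named for a lower level. It had 64.7, 45.4 and 116.4 CPM in the early controls of HV-11, LAY-15 and YORK-09, and 10.99, 3.39 and 27.4 CPM in their treated partners, with no overlap. The log2 fold change was -2.76 ± 0.44 (approximate SE, n = 3 per group), the edgeR adjusted p was 1 and the DESeq2 adjusted p 1.71e-04. In the late pairs the treated seedling was higher in HV-11 (55.0 against 11.5 CPM) and YORK-09 (60.1 against 0.207 CPM) and lower in LAY-15 (2.78 against 61.0 CPM). Over all alternatives, the log2 fold change lay between -3.69 and -2.48 for QL04p028865 and between -3.37 and -1.95 for QL05p000933. The values nearest 0 came, unpaired, without LAY-15-30 for the former and without LAY-15-34 for the latter. In DESeq2 with no pairing, the adjusted p was 0.195 for QL04p028865 and 0.319 for QL05p000933, QL05p064288 was given no adjusted p and so was not called, and QL09p011651 had 0.0069.

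**Figure D1:**
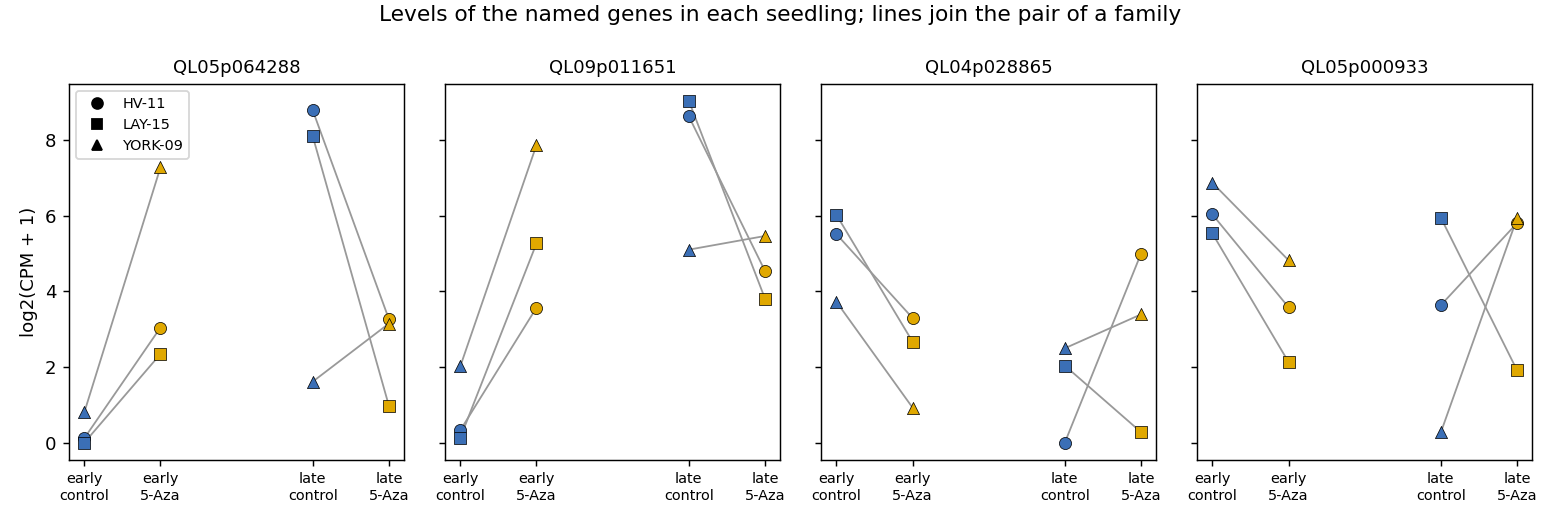
Level of each named gene, as log2(CPM + 1), in the 12 seedlings, with blue for control, yellow for 5-Azacytidine, a symbol per family and a line joining each pair. In the early pairs all lines of a gene run the same way, whereas in the late pairs they do not.

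Beyond these, the first 10 genes by p-value in each direction had absolute log2 fold changes of 2.51 to 7.38 (median 4.55) among those higher and 1.62 to 10.2 (median 2.97) among those lower. All 10 higher genes and 9 of the 10 lower genes had the same direction in all 3 early pairs. These pairs made the ranking, so the counts only describe it. In the late pairs, which played no part in ranking them, 2 of the 10 higher genes were higher in all 3 pairs and 2 were lower in all 3. Of the 10 lower genes, 0 were lower and 0 higher in all 3 late pairs. Over all genes tested early, 13.0% were higher and 12.1% lower in all 3 late pairs, and 10 genes are too few to set apart from these shares.

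The treated-to-control ratio within a pair was wide in every family. On log2(CPM + 1), 2890 genes were over 2-fold higher in the treated seedling of HV-11 and 1839 over 2-fold lower. The pair of LAY-15 had 3677 such genes higher and 2748 lower, and that of YORK-09 2142 higher and 2760 lower. Treated seedlings thus had more higher than lower genes in HV-11 and LAY-15 and more lower than higher genes in YORK-09. The SD of the log2 ratio over genes was 1.01, 1.19 and 0.98 in the same order. The ratios of the pairs had almost no correlation over the 22468 genes, with Pearson's r of 0.05 between HV-11 and LAY-15, 0.05 between HV-11 and YORK-09 and -0.06 between LAY-15 and YORK-09. These are correlations across genes, which are not independent replicates.

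A total of 222 genes (0.988% of those tested) were over 2-fold higher in the treated seedling of all 3 early pairs, and 45 (0.2%) were over 2-fold lower in all 3. Each of the 6 mixed orders of direction held between 38 and 155 genes. The larger mixed classes were 155 genes higher in HV-11 and LAY-15 and lower in YORK-09, and 148 genes higher in LAY-15 alone and lower in the others. In the late pairs the counts lay the other way: 71 genes (0.324% of 21915) were over 2-fold higher in all 3 pairs and 143 (0.653%) were over 2-fold lower. Without the fold limit the early excess was not there, since 2495 genes were higher in all 3 early pairs and 2716 were lower. Likewise the treated seedlings lay wholly above the controls in 713 genes (3.17%) and wholly below in 695 (3.09%). HV-11 and LAY-15 were extracted on the same day, and their early seedlings were chosen by phenotype. These families shared 949 genes over 2-fold higher in both treated seedlings and 234 lower in both. HV-11 and YORK-09 shared 535 and 412, and LAY-15 and YORK-09 552 and 326. Genes over 2-fold in opposite directions numbered 1019 for HV-11 and LAY-15, 746 for HV-11 and YORK-09 and 1123 for LAY-15 and YORK-09. HV-11 and LAY-15 each had more genes over 2-fold higher in their own pair than YORK-09, and the shared counts are not adjusted for this. Whether day or choice had a part was not tested.

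**Figure D2:**
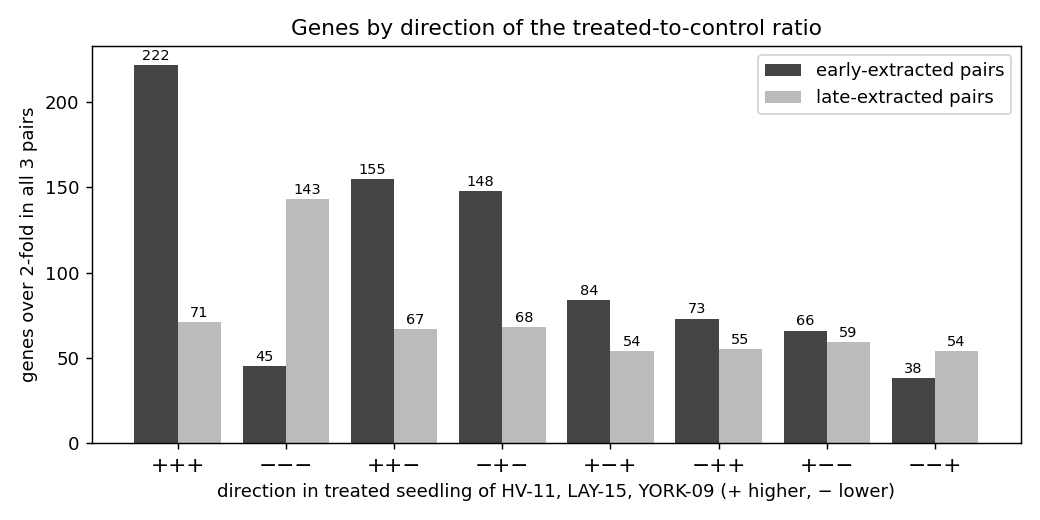
Number of genes over 2-fold in all 3 pairs on log2(CPM + 1), by the direction in the treated seedling of HV-11, LAY-15 and YORK-09, for early pairs (dark) and late pairs (light). The class higher in all pairs holds 222 early and 71 late genes, and the class lower in all pairs 45 early and 143 late genes.

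The 222 higher genes were chosen on the early ratios, so their early levels only describe the choice. Their median level was 1.28, 0.775 and 2.196 CPM in the controls HV-11-05, LAY-15-30 and YORK-09-03, and 9.12, 12.9 and 13.2 CPM in the treated seedlings HV-11-33, LAY-15-34 and YORK-09-08. Of these genes, 18 had no count in HV-11-05, 45 had none in LAY-15-30 and 4 had none in YORK-09-03. All 222 had at least 10 counts in every early treated seedling, but the rule set this in advance. It needs a treated level above 1 CPM, which at this depth is over 10 counts. Their summed level was 2527 to 3262 CPM in the early controls and 12785 to 13122 CPM in the early treated seedlings. The pair of LAY-15 had the largest ratio of the 3 for 112 genes, HV-11 for 58 and YORK-09 for 52. By the same early values, 200 of the 222 had an unadjusted p under 0.05 in edgeR and DESeq2 called 121, against 822 and 196 of all 22468 genes.

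The late seedlings, which the choice did not use, had these genes above the early controls in both treatments. The median was 14.1, 8.72 and 6.87 CPM in the late controls of HV-11, LAY-15 and YORK-09, and 12.4, 6.15 and 4.71 CPM in the late treated seedlings. Every late seedling, control or treated, lay above the highest early control and within or below the range of the early treated seedlings, with the exception of the late HV-11 control, which lay above it. For 173 of the 222 genes (77.9%), the late controls were closer in level to the early treated seedlings than to the early controls, against 56.3% of all genes tested. The rule chose genes with low early controls and high early treated seedlings, so seedlings outside the choice tend to lie between the groups, and nothing is read from this count.

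The direction of the 222 genes was not repeated in the late pairs. Their median log2 ratio was -0.13 for HV-11, -0.07 for LAY-15 and -0.50 for YORK-09, against 0.03, 0 and 0 over the genes tested in the late seedlings. In the late pairs 0 of the 222 genes were over 2-fold higher in all 3 pairs and 7 were over 2-fold lower in all 3. Without a fold limit, 16 (7.21%) were higher in all 3 late pairs and 49 (22.1%) lower, where 13.0% and 12.1% of the genes tested early were.

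Some genes of this list lay next to each other in the order of the deposited table. In that order, 27 of the 222 (12.2%) had another gene of the list as a direct neighbour among the genes tested, against 1.84% of the genes outside the list that had a list gene beside them. Whether such neighbours are near-identical copies or overlapping gene models was not tested. Of the 45 lower genes, 0 had a neighbour in their own list, where 0.401% of the genes outside it had a list gene beside them. At so low a share, 45 genes are too few to set the lists apart.

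The 45 lower genes had a median of 11.4, 10.8 and 14.4 CPM in the early controls of HV-11, LAY-15 and YORK-09 and of 2.33, 2.49 and 3.37 CPM in the early treated seedlings. The late seedlings lay between these, at 3.65, 8.42 and 6.51 CPM in the controls and 6.51, 4.49 and 5.52 CPM in the treated seedlings. In the late pairs 3 of the 45 were higher in all 3 pairs, 1 of them over 2-fold, and 6 were lower in all 3, or 6.67% and 13.3% against 13.0% and 12.1% of the genes tested early. The share lower is thus near that of all genes. By the early values that chose them, 41 of the 45 had an unadjusted p under 0.05 in edgeR, DESeq2 called 15, and in 22 the groups did not overlap, against 822, 196 and 1408 of all 22468 genes.

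**Figure D3:**
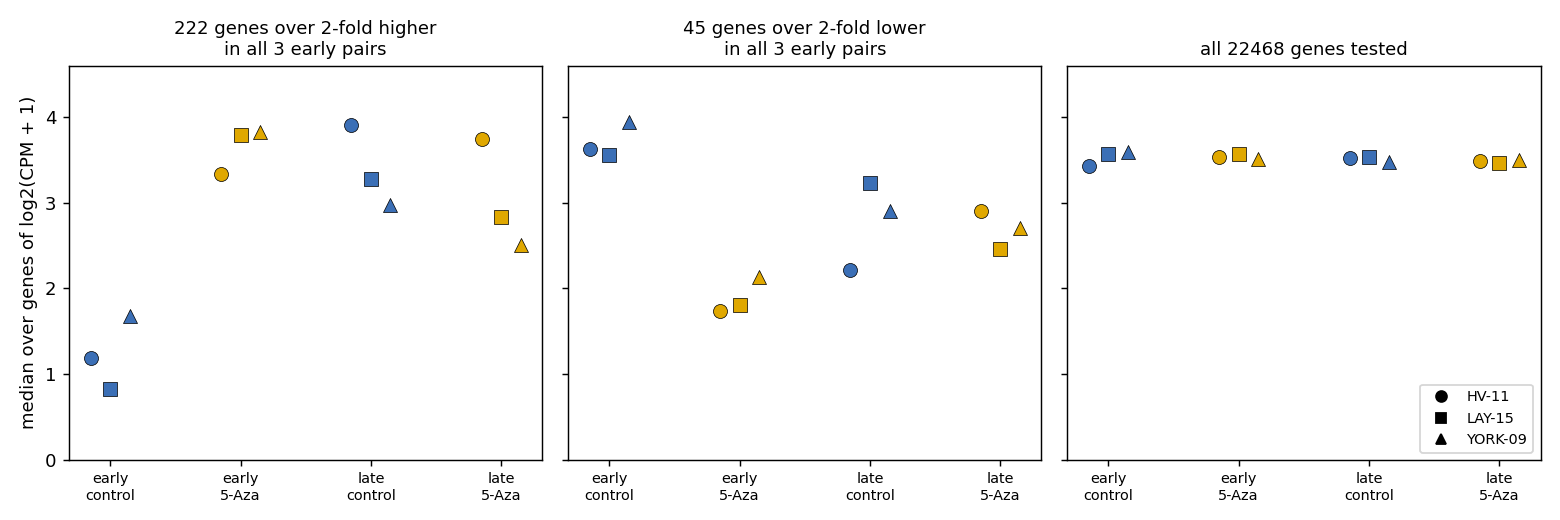
Median over genes of log2(CPM + 1) in each seedling for the 222 higher genes, the 45 lower genes and all 22468 genes tested, with blue for control and yellow for 5-Azacytidine. For the 222 higher genes the 3 early controls are the lowest seedlings, and the late seedlings of both treatments lie above them, from 2.51 to 3.91, while the medians of all genes tested are level.

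A few genes were close to switched on or off. With at least 10 counts in every seedling of one treatment and at most 3, the limit of detection used here, in every seedling of the other, 17 genes were on only in the early treated seedlings and 3 only in the early controls. In the late pairs the same rule gave 9 and 12 genes. Measured against 3 counts per control seedling, the 17 genes were at least 4.18-fold to at least 33.3-fold higher in the treated seedlings. Among them, 1 gene had 157, 109 and 11 counts in the treated seedlings of HV-11, LAY-15 and YORK-09, and 0, 0 and 1 in the controls. In the late seedlings the gene had 0 to 1 count in the controls and 6 to 124 in the treated seedlings, the same direction as in the early ones. Another, with an identifier close in number to QL09p011651, had 10, 82 and 212 counts in the early treated seedlings and 0, 3 and 2 in the early controls. Its late counts were 22 to 1324 in the controls and 6 to 51 in the treated seedlings, which overlap. Whether this gene and QL09p011651 are copies or overlapping gene models was not tested. Both on genes given here were singled out after their values were seen, and do not show how many of the 17 kept their direction.

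Of the 3 genes on only in the early controls, 1 had 200, 108 and 138 counts in the controls and 0 in every treated seedling, at least 47.3-fold lower in the treated group against 3 counts per seedling. Its DESeq2 adjusted p was 1.60e-07 and its edgeR adjusted p 1. In the late seedlings it had 8 to 248 counts in the controls and 1 to 276 in the treated seedlings, which overlap. Another had 12, 175 and 189 counts in the early controls, 1, 0 and 0 in the early treated seedlings, and 0 in all 6 late seedlings. The last had 10 to 13 counts in the early controls and 0 in the early treated seedlings.

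Genes at an unadjusted p under 0.05, none of them called by edgeR, were found at all levels of expression. When the genes tested were put in 5 equal groups by mean CPM, genes at an unadjusted p under 0.05 were more often higher than lower in every group, from 119 and 44 in the lowest (up to 2.701 CPM) through 148 and 55, 101 and 56 and 100 and 52 to 90 and 57 in the highest (over 46.4 CPM). In each group both directions together held fewer genes than that threshold passes when no gene differs. The 222 higher genes were found in these groups, in the same order, in numbers of 33, 74, 56, 32 and 27. Among the 50 most abundant genes, all above 1427 CPM on average, 45 were higher in the treated seedlings by their fitted fold change and 5 lower. Of these 50, 1 was over 2-fold in the same direction in all 3 pairs, and 1 had an unadjusted p under 0.05 in edgeR. Their median absolute log2 fold change was 0.37, and the median log2 fold change over the highest of the 5 groups was -0.0087. From control to treated seedling, the share of counts in the top 10 genes rose in HV-11 (8.37% to 10.4%) and LAY-15 (8.39% to 11.7%) and fell in YORK-09 (7.25% to 5.27%).

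Whether the treatment effect differed between early and late pairs was tested as an interaction over the 12 seedlings. The early and late comparisons share no seedling. edgeR called 0 of 23791 genes (0%), with a smallest adjusted p of 0.289. At an unadjusted p under 0.05 there were 1272 genes, about as many as that threshold passes when no gene differs. Of these, 844 had the higher effect in the early pairs. DESeq2 called 277 genes (1.16%), 227 of them with the higher effect in the early pairs. For QL05p064288 the interaction had an adjusted p of 0.892 in edgeR and 5.00e-07 in DESeq2, and for QL09p011651 0.766 and 2.69e-09. For QL04p028865 and QL05p000933 neither tool called it, with DESeq2 adjusted p of 0.457 and 0.231.

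The fold changes of the early and the late pairs had a Pearson's r of -0.09 and a Spearman's rho of -0.11 over 21108 genes tested in both. DESeq2 called 283 genes (1.29%) in the late pairs, and 22 of these were among the 196 early calls (11.2% of the early list and 7.77% of the late list). Of the 22 genes, 4 were higher in treated seedlings in both, 2 were lower in both and 16 had opposite directions, 15 of them higher in early and lower in late treated seedlings. Of the first 100 genes by p-value in the late pairs, 41% had the same direction in the early pairs (95% Wilson interval 31.9% to 50.8%, which treats genes as independent), against 45.4% of all genes. Of the 100 ranked first in the early pairs, 86 were higher in treated seedlings, and 39% of the 100 had the same direction in the late pairs. Within a family, the ratio of the early pair and that of the late pair correlated across genes with a Pearson's r of -0.21 for HV-11, 0.07 for LAY-15 and -0.0027 for YORK-09. Extraction day and seedling cannot be told apart in any of these comparisons, nor, in HV-11 and LAY-15, can the choice of the early seedlings by phenotype.

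Day 19 alone holds the pairs of HV-11 and LAY-15, and day 16 holds 1 pair, which allows no test. In the 4 seedlings of day 19, edgeR called 0 of 20988 genes (0%). It gave 831 at an unadjusted p under 0.05, fewer than that threshold passes when no gene differs. Of these, 656 were higher in treated seedlings and 175 lower. DESeq2 called 298 genes (1.42%), 262 of them higher. Higher genes thus made up 78.9% of those at an unadjusted p under 0.05 within day 19, against 67.9% over both days. The day 19 seedlings are also those that the study chose by phenotype, so day and choice cannot be told apart.

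Over the whole profile, the share of family was larger than that of treatment. After the variance stabilizing transformation, family, with extraction day nested in it, took 60.1% of the squared distances between the 6 seedlings and treatment 13.5%. The share of treatment over the 8 ways to assign it within pairs was 13.3% on average, and an exact one-sided permutation test gave p = 0.75, where the smallest the design allows is 0.25. The mean distance was 137 (127 to 155) between the seedlings of a pair, 155 (133 to 185) between treated seedlings of different families, and 191 (147 to 219) between controls of different families. The treated seedlings of HV-11 and LAY-15 were 133 apart and their controls 206. LAY-15-30 was in both of the larger distances between controls, and without it the 1 remaining distance, between HV-11-05 and YORK-09-03, was 147, the same as the 147 between their treated partners.

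**Figure D4:**
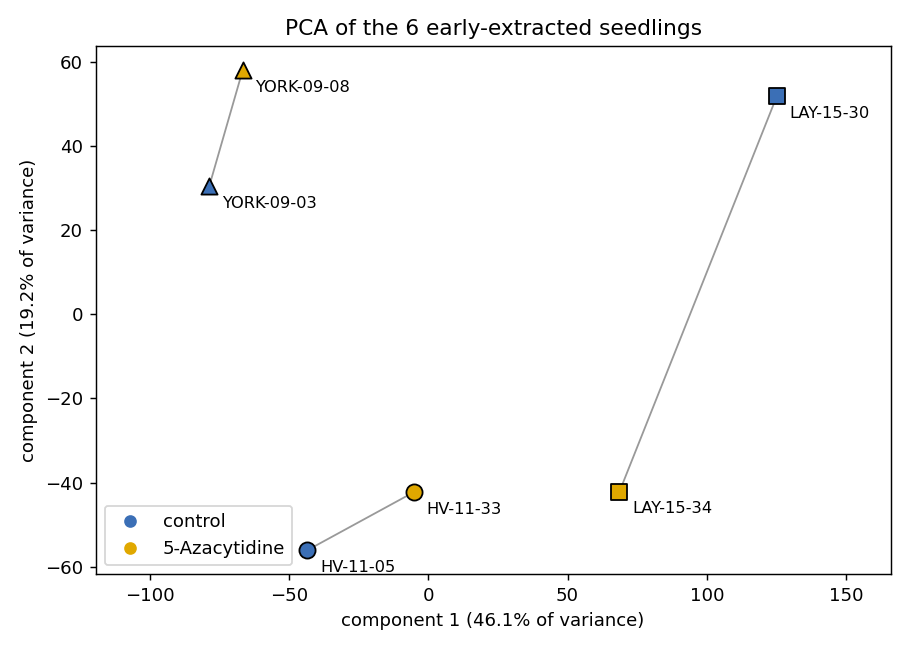
First and second principal components of the variance-stabilized counts of the 6 early seedlings, with lines joining the pair of each family. The first component (46.1% of the variance) places both LAY-15 seedlings, with LAY-15-30 at 125 and LAY-15-34 at 68.7, apart from the other families.

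More genes were detected in the treated seedling of every early pair. At an equal depth of 9957359 reads, the expected number of genes with at least 1 read went from 25390 to 26352 between HV-11-05 and HV-11-33, from 25856 to 26214 between LAY-15-30 and LAY-15-34, and from 26561 to 27056 between YORK-09-03 and YORK-09-08. The treated seedlings had 962, 358 and 495 more genes than their partners in HV-11, LAY-15 and YORK-09, or 605 ± 317 (SD, n = 3 pairs). An exact two-sided permutation of the signs gave p = 0.25, the smallest that 3 pairs allow. The treatment groups overlapped, since the YORK-09 control had more genes than the treated seedlings of HV-11 and LAY-15. The late pairs, not set to equal depth, had the reverse order, by little in YORK-09. As deposited, 27038 genes had a count in the treated and 27483 in the control seedling of HV-11, 26026 and 26461 in LAY-15, and 26090 and 26111 in YORK-09. The late HV-11 control also had more counts in total (11137658 against 10733171), whereas in LAY-15 and YORK-09 the late treated seedling had more.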

How the data were processed

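Read counts per gene were taken as deposited, as whole numbers. The authors trimmed reads of poly(A) leaf libraries with cutadapt 2.3, aligned them to the *Q. lobata* genome with STAR 2.7.1, removed multi-mapping reads (SAMtools 1.9) and platform duplicates (Picard 2.20.3), and counted with HTSeq 0.11.1, without normalization. The members and lists were chosen with earlier results of these data known. Genes were kept by filterByExpr (minimum count 10, minimum total 15, at least 2 seedlings) and tested in R 4.3.3 with edgeR 4.0.16 (TMM, glmQLFit and glmQLFTest, family as a block, Benjamini-Hochberg over all genes tested), with DESeq2 1.42.0 as an alternative. Adjusted p-values that DESeq2 left empty were not counted as calls, and SEs of fold changes are approximations from the test statistic. Ratios within pairs used log2(CPM + 1), which understates the change of low genes. Family and extraction day pair the seedlings in the labels. Deviations from the treatment means correlated at 0.219, 0.482 and 0.423 within pairs and at -0.186 on average otherwise. The negative average follows largely from centring 3 seedlings per treatment on their own mean, so it is no separate support for the pairing. Counts of any 2 early seedlings differed by 54.0 to 150.8 chi-square per degree of freedom, so no library repeats another. Named are the 2 genes with the smallest p in each direction. The lists are the 10 with the smallest p in each direction, genes over 2-fold the same way in all 3 pairs, and genes with at least 10 counts in all seedlings of one treatment and at most 3 in the other. Fold bounds are the mean level of the higher group over the level of 3 counts, with no term for counting error or spread between seedlings. Wilson intervals cover only the sampling of genes treated as independent. Alternatives were other size factors, filters, covariates, blocks, pseudocounts and left-out pairs. The scripts were tested on simulated data, and figures were drawn with matplotlib 3.10.9. Growth, methylation and soil data were not analysed here.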

Additional observations from a re-analysis of the deposited data

How the results depend on the processing

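In 15 edgeR alternatives the early comparison kept 0 calls, with smallest adjusted p from 0.798 to 1 and 416 to 1275 genes at an unadjusted p under 0.05, and with no replicate block (unpaired seedlings) edgeR called 0. DESeq2 called 196 genes, and, in alternatives chosen after seeing the data, 79 with no replicate block, 134 without the pair of HV-11, 233 without LAY-15 and 294 without YORK-09. For the difference between early and late pairs, edgeR called 0 in 9 alternatives, and DESeq2 called 277, with 308, 383 and 330 without the early pairs of HV-11, LAY-15 and YORK-09 and 178, 224 and 206 without the late ones, also chosen afterwards. For day 19, DESeq2 called 298. With a pseudocount of 2 CPM, 140 genes were over 2-fold higher and 21 lower in all 3 pairs. Any 2 pairs shared 535 (without LAY-15) to 949 (without YORK-09) genes over 2-fold higher and 234 to 412 lower, and had 746 to 1123 in opposite directions. The share of variation by treatment was 18.4% to 28.6% with 1 pair left out, and without HV-11 it fell below the 19.8% mean of the assignments, where otherwise it lay above. Of the late-ranked genes, 52% kept their direction among the first 50, against 41% of 100. The causes were not tested. Levels of 3 counts or fewer are at the limit of detection at this depth.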
